A study of Mus musculus with 8 samples.

Results

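The mitochondrial respiratory chain is built mostly from proteins encoded in the nucleus, and the genes of these proteins were followed here through a gain and a loss of the T-lineage transcription factor TCF-1. Complexes I and II feed electrons from NADH and succinate into the chain, complexes III and IV pass them on to oxygen and complex V, the ATP synthase, uses the proton gradient so formed to make ATP. In proliferating cells, thymocyte lines and fibroblasts included, the chain also regenerates the electron acceptors that the synthesis of aspartate needs. Genes were taken by their mouse symbol, looked up from the Ensembl identifier in GENCODE M21: protein-coding genes starting Ndufa, Ndufb, Ndufc, Ndufs, Ndufv, Uqcr, Cox4, Cox5, Cox6, Cox7, Cox8 or Atp5, with Sdha, Sdhb, Sdhc and Sdhd, that are listed for all 8 libraries. This gave 93 of 30731 genes, or of 21933 protein-coding ones. They comprise 36 genes of complex I, 4 of complex II, 8 of complex III, 20 of complex IV, 17 of complex V and 8 assembly factors of complex I, whose symbols start Ndufaf. Ndufa4 was counted with complex IV, where its protein sits, together with its paralogue Ndufa4l2. Atp5s, the coupling factor B gene, and Atp5mpl, a small membrane subunit, are held by the symbol rule in complex V.

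The study asked how TCF-1 reorganises the folding of the genome, and its RNA-seq libraries come in 4 groups of 2. NIH-3T3 mouse fibroblasts were labelled as having TCF-1 (gene Tcf7) induced or as normal and untreated, and Scid.adh cells, a mouse thymic lymphoma line used as a model of double-negative stage 3 (DN3) thymocytes, as Tcf7-/- or as wild type with an empty vector. Per the file headers, all 4 of the 3T3 libraries come from alignments named for Cas9 and 72 hours, and only those of the induced cells are also named for doxycycline. Doxycycline binds the mitochondrial ribosome of mammalian cells as well as the switch of an inducible construct, so its effects and those of TCF-1 cannot be told apart in 3T3. Whether the knockout line is 1 clone or a pool is not given in the sources used here, nor is a culture time for Scid.adh. Whether replicate libraries stem from separate cultures is not said in the labels, and p-values here then reflect only how far these libraries spread, part of which may be technical.

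Total gene counts were 16857868 and 13850213 in induced and 16174002 and 17523677 in normal 3T3 libraries, and 7740198 and 8217933 in knockout and 10392402 and 9847239 in empty-vector Scid.adh libraries. Tcf7 stood at 945.9 and 971.5 CPM (counts scaled to a common library size by TMM factors, as in all levels that follow) in induced cells, against 14.45 and 14.65 CPM in normal cells. It stood at 646.4 and 624.5 CPM in knockout libraries, against 1318 and 1325 CPM in empty-vector ones, so the knockout libraries kept Tcf7 reads at a fold change of -1.06 on the log2 scale. Fibroblast markers summed to between 23749 and 26592 CPM in 3T3. In Scid.adh the 6 summed to 10.3 and 9.49 CPM in knockout libraries, against 122 and 126 CPM in empty-vector ones. Pdgfrb made up nearly all of the empty-vector sums, at 119.7 and 125.1 CPM, and stood at 4.38 and 3.80 CPM in knockout libraries. The other 5 stayed at or under 2.43 CPM each. Of the 3 fibroblast markers tested in Scid.adh, 2 rose and 1 fell in the knockout, with a median log2 fold change of 1.78. The 7 DN3 T-lineage markers summed to 2696 and 2753 CPM in knockout libraries, against 3619 and 3574 CPM in empty-vector ones, and to at most 11.03 CPM in 3T3, while B cell and erythroid markers stayed at or under 1.06 CPM in all libraries. Myeloid markers summed to 23.4 and 22.5 CPM in induced against 15.14 and 15.97 CPM in normal cells, and to 9.36 and 9.97 CPM in knockout against 7.35 and 4.59 CPM in empty-vector libraries. The part of these markers in the results was not tested.

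In Tcf7 knockout Scid.adh cells, respiratory chain transcripts were lower in many members: each complex held falls, and the steps were small. Of the 85 members tested, 30 fell and 0 rose at an adjusted p under 0.05 (edgeR's quasi-likelihood test, Benjamini-Hochberg over all 11941 genes tested), and their median log2 fold change was -0.19. Fold changes in Scid.adh are knockout over empty vector, those in 3T3 are induced over normal, and a lone number in brackets after a gene is its fold change on the log2 scale. At an unadjusted p under 0.05, 1 member was higher (Ndufc1) and 40 were lower, and DESeq2 and limma-voom likewise gave 0 rises, with 18 and 30 falls. Among all genes 15.9% fell and 15.6% rose (31.5% in either direction), with a median of -0.004, against 35.3% of the members that fell. Abundant genes as a class were lower in the knockout: at an average of 50 CPM or more, 28.0% of genes fell and 8.52% rose (36.5% either way) with a median of -0.09, against 39.7% of the 63 members at that level and a median of -0.18. The largest change was 1.62-fold (Ndufa3). In bulk libraries fewer cells of a type and less RNA per cell cannot be told apart.

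The size of this fall depends on how the libraries are scaled. As a share of all gene counts, with no scaling factor, the 93 members took 1.17% and 1.04% of the knockout libraries. They took 1.15% and 1.16% of the empty-vector libraries, so that the groups overlapped. As a share of protein-coding nuclear genes listed for all 8 libraries, they took 1.21% and 1.10%, against 1.22% and 1.23%, without overlap. With the 50 most abundant genes left out, the 91 members that remain took 0.997% and 0.899%, against 0.990% and 0.999%, with overlap. After TMM scaling the 93 members summed to 11015 and 10188 CPM in knockout libraries, against 12078 and 12183 CPM in empty-vector ones. These sums did not overlap. With total counts in place of TMM factors the median of all genes moved to 0.13, 24.8% of genes rose and 7.68% fell, and 5 members rose and 11 fell. The members' median was then -0.05. A scaling factor moves all genes alike and so leaves the members' distance from the median of all genes, -0.18, nearly as it is. That distance was -0.07 with a loess correction against expression level, -0.11 without knockout library 2, -0.23 without knockout library 1 and -0.38 with no filter on low counts. Knockout library 1 was the higher one for the summed members and knockout library 2 the lower, in every complex. The libraries also differed in the transcripts of the 13 mitochondrially encoded subunits, which summed to 4928 and 9522 CPM in knockout, against 7500 and 7565 CPM in empty-vector libraries, and in reads outside any gene (22.3% and 25.8% in knockout, against 21.3% and 21.6% in empty-vector libraries). The part of these in the result was not tested. Without knockout library 1, 46 members fell, and without knockout library 2, 28 fell and 3 rose. Without empty-vector library 1 or 2, 16 and 15 fell, and with upper-quartile factors or a loess correction against expression level 19 fell.

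**Figure D1:**
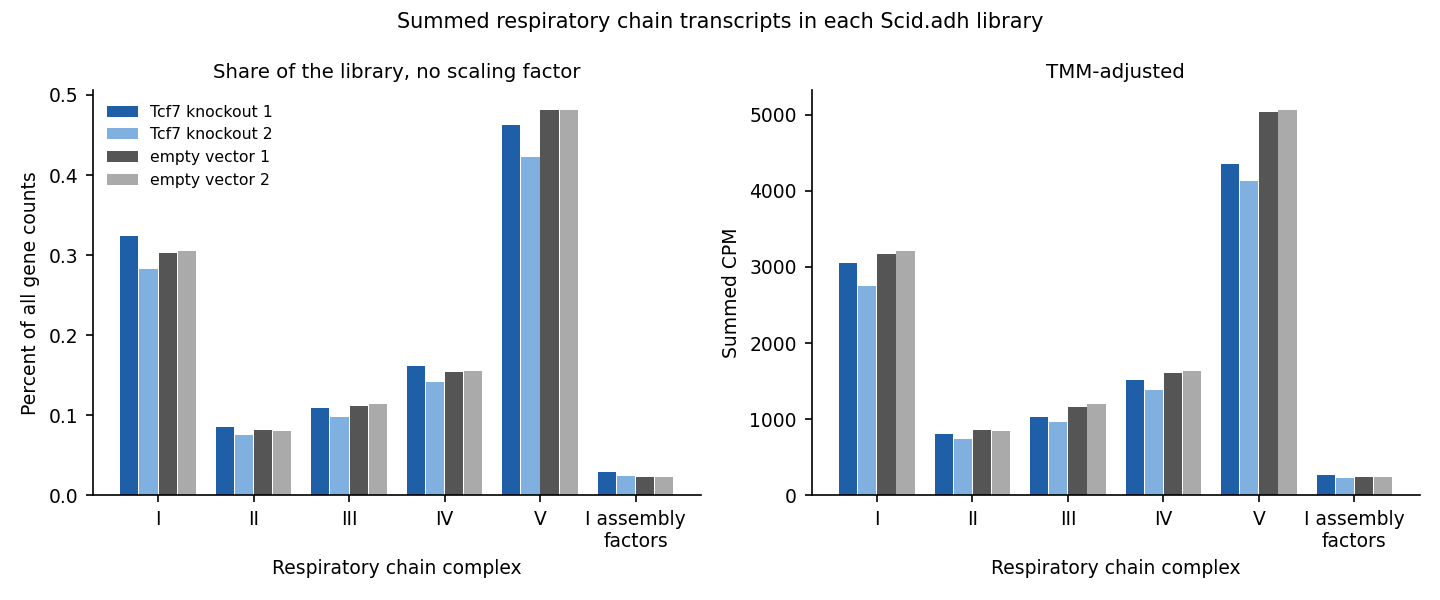
Summed transcripts of each respiratory chain complex in each Scid.adh library (bars, 1 library each), as percent of all gene counts with no scaling factor (left) and as summed TMM-adjusted CPM (right). Complex V is lower in both knockout libraries on both scales, at 0.462% and 0.423% against 0.481% and 0.482% of counts, and so is complex III, while the groups overlap on the left in complexes I, II and IV.

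**Figure D2:**
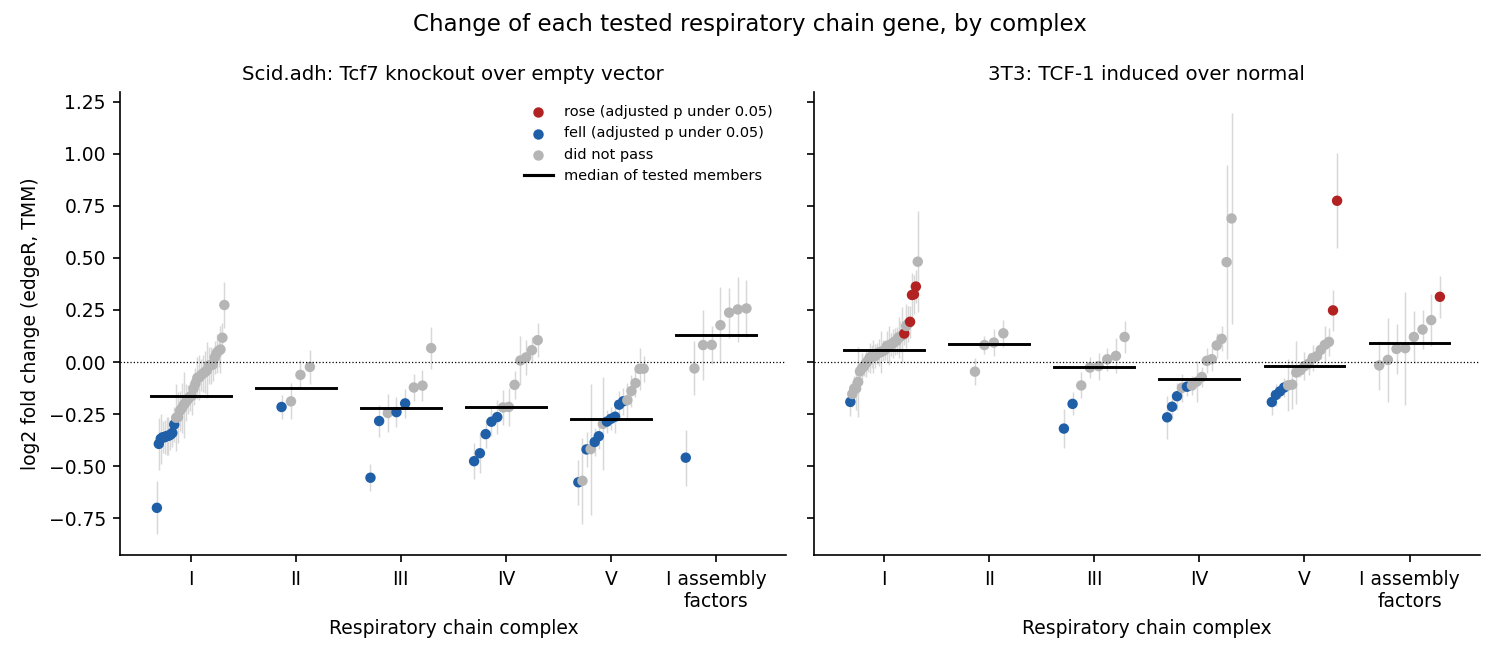
The log2 fold change of each tested member (points, with SE) by complex, for knockout over empty-vector Scid.adh cells (left) and for TCF-1 induced over normal 3T3 cells (right). Blue points fell, red points rose and grey points did not pass, and black bars are medians. All 17 complex V genes lie below 0 on the left, and 6 of 8 complex I assembly factors lie above it.

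Complex V had the lowest median of the complexes under TMM scaling. Without knockout library 1 complexes III and IV lay lower (medians -0.30 and -0.29, against -0.27), as they did with the level correction (-0.12 and -0.16, against -0.11). The ATP synthase has a catalytic F1 head and a membrane-bound Fo part that carries the rotating c-ring, and 9 of its 17 genes fell (median -0.27), with all 17 below 0. With total counts 14 of the 17 stayed below 0 and 4 fell. The c-ring is encoded by 3 genes for the same mature protein, of which Atp5g1 (chromosome 11, 96068852 to 96075670, minus strand of GRCm38) stood at 27.8 and 29.0 CPM in knockout libraries, against 43.0 and 41.7 CPM in empty-vector libraries. It was 1.49-fold lower (log2 fold change -0.58, SE 0.11, adjusted p = 0.00180), and both knockout libraries lay below both others. The most abundant c-ring gene, Atp5g3, stood at 196 and 186 CPM in knockout libraries, against 243 and 247 CPM (log2 fold change -0.36). Atp5g2, the least abundant, gave -0.57 (SE 0.21) and did not pass, at 8.76 and 6.76 CPM in knockout libraries against 10.8 and 12.3 CPM. In the F1 head, Atp5b, the catalytic beta subunit and the most abundant member per kilobase of exon in Scid.adh, stood at 1514 and 1408 CPM in knockout libraries, against 1783 and 1779 CPM (log2 fold change -0.29, SE 0.06). Its call was lost with total counts, with the level correction (-0.06) and without either empty-vector library. The delta subunit gene Atp5d stood at 202 and 185 CPM, against 251 and 253 CPM (log2 fold change -0.38), but shares exon bases with Cbarp on the other strand. Atp5k, the e subunit of the membrane part, stood at 68.8 and 69.8 CPM in knockout libraries, against 89.0 and 96.5 CPM (log2 fold change -0.42). Atp5a1, Atp5f1, Atp5mpl and Atp5o make up the 9 falls. The gamma subunit gene Atp5c1 showed 328 and 305 CPM in knockout libraries against 325 and 323 CPM, with overlapping groups.

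In complex III, which carries electrons from ubiquinol to cytochrome c, 4 of 8 genes fell (median -0.22), and 5 of the 8 stayed below 0 with total counts. Uqcrfs1, the Rieske iron-sulfur protein that takes the electron from ubiquinol, had the lowest adjusted p of any member. It lies on chromosome 13 (30540308 to 30545362, minus strand) and stood at 172 and 167 CPM in knockout libraries, against 243 and 257 CPM in empty-vector libraries. The fold change was -0.56 on the log2 scale (SE 0.06, adjusted p = 6.04e-05), 1.47-fold lower, and no alternative moved it outside -0.61 to -0.42. The hinge protein gene Uqcrh (-0.24), the small subunit gene Uqcr11 (-0.28) and the core gene Uqcrc1 (-0.20) also fell. Uqcrc1 was close to the threshold (adjusted p = 0.0486) and lost its call in 10 of 16 alternatives, among them both left-out empty-vector libraries, and stood at -0.30 without knockout library 1 and -0.11 without knockout library 2. Uqcr10 was the sole complex III gene above 0, at 53.0 and 52.3 CPM in knockout libraries against 47.1 and 53.6 CPM (log2 fold change 0.07).

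In complex IV, cytochrome c oxidase, 5 of 12 tested genes fell (median -0.22, and -0.08 with total counts). They code for subunits around the catalytic core, which is itself encoded in mitochondrial DNA. Cox6a1 stood at 88.5 and 75.6 CPM in knockout libraries, against 113 and 115 CPM in empty-vector libraries (log2 fold change -0.48, SE 0.09, adjusted p = 0.00130). Cox6b1, which faces the intermembrane space, stood at 81.2 and 65.9 CPM, against 99.0 and 100.2 CPM (log2 fold change -0.44), and Cox8a at 129 and 131 CPM, against 163 and 168 CPM (log2 fold change -0.35). In all 3 genes the knockout libraries lay below both empty-vector libraries, and the 2 knockout libraries were furthest apart in Cox6b1. Cox7b (-0.29) and Cox5b (-0.26) were the other falls. Cox6c, the complex IV gene with the most CPM in Scid.adh, did not pass, at 319 and 294 CPM in knockout libraries against 292 and 298 CPM (log2 fold change 0.06, adjusted p = 0.526). Cox7a2l, which joins complexes III and IV into supercomplexes, gave 0.10 and did not pass.

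Complex I, the NADH dehydrogenase, held 10 falls among 36 genes (median -0.17). With total counts 19 of the 36 lay below 0, 3 fell and 2 rose. Ndufa3, an accessory subunit of the membrane arm, stood at 22.6 and 26.2 CPM in knockout libraries, against 37.0 and 42.5 CPM in empty-vector libraries (log2 fold change -0.70, SE 0.13, adjusted p = 0.00141). It shares exon bases with Tfpt on the other strand (chromosome 7, 3617373 to 3620327, plus strand). Ndufa11, which sits near the contact with complex III, stood at 25.4 and 31.6 CPM, against 36.6 and 38.3 CPM (log2 fold change -0.39, adjusted p = 0.0308), and Ndufa7 at 24.4 and 23.7 CPM, against 31.7 and 30.4 CPM (log2 fold change -0.37). Ndufv1, the core NADH-binding flavoprotein, stood at 117 and 108 CPM in knockout libraries, against 139 and 148 CPM (log2 fold change -0.35). Ndufs3, also a core gene, fell by 0.36. The core genes Ndufs1, Ndufs7, Ndufs8 and Ndufv2 did not pass. Ndufc1, a small membrane-arm subunit, was the highest of the complex at 67.6 and 53.4 CPM in knockout libraries against 50.4 and 49.6 CPM (log2 fold change 0.27, adjusted p = 0.0796). Its groups do not overlap and it did not pass.

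The complex I assembly factors, which build the complex and are not part of it, had a median of 0.13, which rests on knockout library 1: without it the median was -0.0007 and 4 of 8 lay below 0, and without knockout library 2 it was 0.27. In the fit of all 4 libraries 6 of 8 lay above 0 and 1 fell, Ndufaf8, at 18.4 and 17.7 CPM in knockout libraries against 24.7 and 24.9 CPM in empty-vector libraries (log2 fold change -0.46, adjusted p = 0.0206). With total counts 2 of the 8 rose and 0 fell at that threshold (edgeR), and 1 lay below 0. Ndufaf4, the most abundant of them, stood at 104 and 87.8 CPM in knockout libraries, against 88.1 and 93.3 CPM (log2 fold change 0.08). In complex II, succinate dehydrogenase, Sdha alone passed: the flavoprotein gene (chromosome 13, 74322254 to 74350280, minus strand) stood at 352 and 345 CPM in knockout libraries, against 409 and 400.4 CPM in empty-vector libraries (log2 fold change -0.22, SE 0.06, adjusted p = 0.0140). The iron-sulfur gene Sdhb (-0.06) and the membrane anchor genes Sdhc (-0.19) and Sdhd (-0.02) did not pass, and with total counts 2 of the 4 genes lay above 0. The call of Sdha was lost in 5 of 16 alternatives, among them without either empty-vector library.

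Over all members, 52 of 85 had both knockout libraries below both empty-vector libraries and 7 had both above, where all tested genes gave 33.9% and 32.8%. Of the 30 falls, 11 passed in the same direction under all 16 alternatives other than a test against a 1.5-fold change. These were Ndufa3, Ndufb10 and Ndufv1 of complex I, Uqcrfs1 of complex III, Cox6a1, Cox6b1 and Cox8a of complex IV, and Atp5d, Atp5g1, Atp5g3 and Atp5k of complex V. The lowest fold change among them was 1.27-fold (Ndufb10), and the same 11 are those that passed with total counts. Many of the 30 falls lost their call without empty-vector library 1 or 2, which leaves 1 library in that group. Lost in both cases were Ndufa7, Ndufs6, Ndufaf8, Sdha, Uqcrc1, Uqcrh, Cox5b, Atp5a1, Atp5b, Atp5f1, Atp5mpl and Atp5o. Of these 2 cases, Ndufa11, Ndufv3 and Uqcr11 lost theirs only without library 2, and Ndufb7 and Cox7b only without library 1. Ndufa11 was at -0.26 and lost its call without knockout library 1, Cox5b (at -0.14) and Ndufa7 lost theirs without knockout library 2, Cox5b was at -0.41 without knockout library 1, and Cox6b1 was at -0.29 without knockout library 2 and kept its call.

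**Figure D3:**
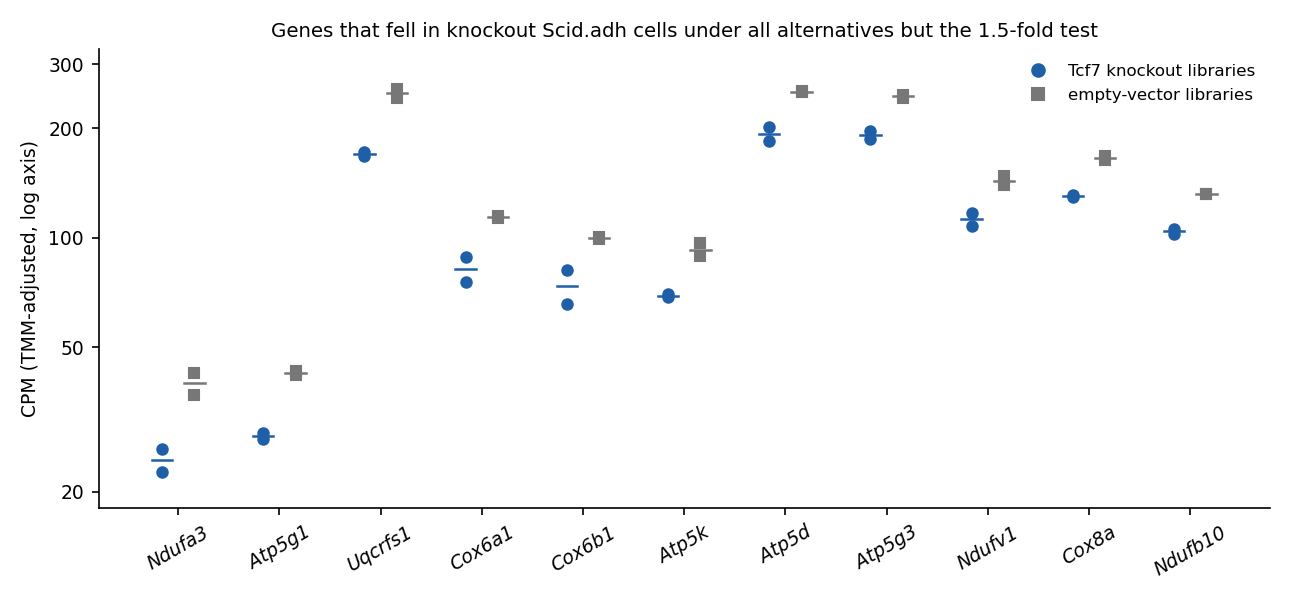
TMM-adjusted CPM (log axis) of the 11 genes that fell in knockout Scid.adh cells under all alternatives but the test against 1.5-fold, in each library (points) with the mean of each group (lines). In every gene both knockout libraries (circles) lie below both empty-vector libraries (squares).

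Promoter letters were read for the members to show the sequence around the starts of genes that moved. Respiratory chain genes are known for sites of NRF1, of the ETS factor GABP and of YY1. For TCF-1 the letters CTTTGANC were searched, with N as any base. This pattern can take in stretches that are not TCF-1 sites, so the TCF counts below are counts of letters only. In the stretch of Uqcr11, read on the other strand, N is C. A stricter pattern was not tested. RefSeq windows of GRCm38.p6, from 250 bases before to 50 after each start, were found for 76 of the 93 members. On either strand, the palindromic letters of NRF1, which stand in capitals in the stretches of Ndufa11, Cox6a1 and Ndufaf4, stood in 7 of the 76 (9.21%) and in 1.07% of 27025 genes, the YY1 letters AAGATGGCG in 8 (10.5%) and in 1.64%, the ETS letters CCGGAAGT in 5 (6.58%) and in 4.31%, and the TCF letters in 4 (5.26%) and in 4.63%. Of the 8 YY1 matches, 7 began 10 to 35 bases after the start. Among the 28 matched members that fell in the knockout, 4 held NRF1, 4 ETS, 3 YY1 and 3 TCF letters. Among the 44 matched members that did not pass, 3, 1, 5 and 1 held them, in the same order. A match is a description of letters and not of binding. The stretches that follow belong to members past the test in either line whose NRF1 or TCF letters lie before the start and outside any annotated exon. They are printed 5′ to 3′ on the strand of the gene, with the letters searched in capitals.
Ndufa11, fell in the knockout and rose in induced 3T3, chr17:56717686-56717761, plus strand, NRF1 letters 60 bases before the start: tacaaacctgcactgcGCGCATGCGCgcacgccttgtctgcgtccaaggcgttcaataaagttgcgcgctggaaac
Cox6a1, fell in the knockout, chr5:115348982-115349129, minus strand, NRF1 letters 162 bases before: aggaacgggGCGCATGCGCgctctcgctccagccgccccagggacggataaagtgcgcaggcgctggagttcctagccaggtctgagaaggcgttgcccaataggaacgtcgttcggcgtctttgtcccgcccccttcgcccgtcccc
Ndufaf4, rose in induced 3T3, chr4:24897883-24898082, plus strand, NRF1 letters 113 bases before: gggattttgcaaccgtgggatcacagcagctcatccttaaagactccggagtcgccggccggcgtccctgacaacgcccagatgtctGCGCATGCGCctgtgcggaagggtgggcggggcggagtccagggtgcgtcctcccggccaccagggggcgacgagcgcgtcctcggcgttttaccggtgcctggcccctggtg
Uqcr11, fell in the knockout, chr10:80406831-80407021, minus strand, TCF letters (read on the other strand) 192 and ETS letters 66 bases before: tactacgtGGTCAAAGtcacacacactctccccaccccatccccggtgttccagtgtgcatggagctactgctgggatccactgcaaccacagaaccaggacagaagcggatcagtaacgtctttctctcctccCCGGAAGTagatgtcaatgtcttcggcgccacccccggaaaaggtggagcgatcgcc

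In 3T3 cells with TCF-1 induced, members moved both ways and by small amounts. Of 87 tested, 8 rose and 11 fell, where 18.5% and 18.3% of all 18185 tested genes did (36.8% in either direction). At an average of 50 CPM or more, 1 of 32 members rose and 7 fell, where 27.5% and 34.0% of all such genes did (61.6% in either direction). Both induced libraries lay above both normal ones in 28 members and below in 23, against 32.4% and 32.7% of all genes. Their median log2 fold change was 0.03. The 93 members took 0.489% and 0.485% of gene counts in induced libraries, against 0.487% and 0.487% in normal libraries. DESeq2's Wald test kept 1 rise and 1 fall of the 8 and 11, and with total counts 8 rose and 7 fell. Without normal library 1 there were 3 rises and 4 falls, without normal library 2 there were 4 and 1, without induced library 1 there were 10 and 7, and without induced library 2 there were 6 and 10. Ndufa11 alone passed under all alternatives other than the test against 1.5-fold. Values moved by over 1.5 times, with the call lost, for Uqcr10 (-0.20) and Cox5a (-0.07) without normal library 2, Ndufb2 (0.19) without normal library 1, Uqcrh (-0.11), Atp5mpl (-0.13) and Atp5g1 (0.10) without induced library 1, and Cox4i1 (-0.07) without induced library 2. Ndufb2 was at 0.48 without normal library 2 and kept its call.

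Most rises lay in complex I, the largest group (5 rose and 1 fell of 36, median 0.06). That was 13.9% of its genes, where 18.5% of all tested genes rose. The other falls lay in complexes III (25.0% of tested members), IV (28.6%) and V (23.5%), where 18.3% of all tested genes fell. Ndufa11 stood at 31.8 and 30.6 CPM in induced cells, against 24.3 and 24.3 CPM in normal cells (log2 fold change 0.36, SE 0.08, adjusted p = 0.000175). It lies on chromosome 17 (56717767 to 56722141, plus strand) and shares exon bases with Vmac on the other strand. Ndufc1 stood at 20.7 and 21.6 CPM, against 16.4 and 17.3 CPM (log2 fold change 0.32), and Ndufb2 at 15.4 and 17.1 CPM, against 11.6 and 14.2 CPM (log2 fold change 0.32). In these 3 genes both induced libraries lay above both normal ones. Ndufb7 and Ndufb9 were the other rises of complex I, and Ndufb11 fell by 0.19. Among the assembly factors Ndufaf4, which acts early in assembly, stood at 16.5 and 16.8 CPM in induced cells, against 13.0 and 13.7 CPM in normal cells (log2 fold change 0.31, adjusted p = 0.0116).

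Of the 8 complex III genes, Uqcr10 and Uqcrh fell. Uqcr10, a small subunit, stood at 16.8 and 17.2 CPM in induced cells, against 19.5 and 22.9 CPM in normal cells (log2 fold change -0.32, SE 0.09, adjusted p = 0.00602), and Uqcrh at 68.1 and 76.9 CPM, against 82.0 and 84.0 CPM (log2 fold change -0.20). In complex IV 4 of 14 tested genes fell (median -0.08). Cox7c stood at 12.4 and 13.8 CPM in induced cells, against 15.3 and 16.1 CPM (log2 fold change -0.27), Cox7b at 48.6 and 48.2 CPM, against 56.4 and 56.0 CPM (log2 fold change -0.21), and Cox5a and Cox4i1 fell by 0.16 and 0.12. In complex V, Atp5b stood at 486 and 493 CPM in induced cells, against 539 and 541 CPM in normal cells (log2 fold change -0.14, SE 0.03, adjusted p = 0.000458), and it lost its call only without normal library 2. Atp5c1, Atp5f1 and Atp5mpl also fell. Atp5g1 rose, at 21.6 and 17.8 CPM in induced cells against 17.6 and 15.9 CPM in normal cells (log2 fold change 0.25). Atp5s also rose, at 3.12 and 4.83 CPM in induced cells against 2.44 and 2.13 CPM in normal cells (log2 fold change 0.77), the lowest level among the members called. It was at 0.45 and lost its call without induced library 2, lost it without normal library 2 and with the DESeq2 Wald test, and was at 1.09 without induced library 1. Atp5g1 overlaps nothing in the annotation, and the counts of its 2 near-identical pseudogenes, in rows of their own, came to 7.94% of its own in 3T3. In complex II none of the 4 genes passed: at an unadjusted p under 0.05 edgeR gave 1 (Sdhb). Sdha stood at 142 and 139 CPM in induced cells, against 133 and 133 CPM in normal cells (log2 fold change 0.08, adjusted p = 0.147), and Sdhb at 44.1 and 46.3 CPM, against 41.8 and 40.3 CPM (log2 fold change 0.14, adjusted p = 0.0925). Sdhc gave 0.09 and Sdhd -0.05 on the log2 scale.

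The lines were compared directly by testing whether the change with more TCF-1 in 3T3 (induced minus normal) differed from the change with more TCF-1 in Scid.adh (empty vector minus knockout), in a fit of all 8 libraries. Of 85 members, 31 gave a lower value in 3T3 and 1 a higher one, where 14.3% and 14.5% of 15854 genes did (28.8% in either direction). The higher one was Ndufc1 (difference 0.56), which was at 0.34 and lost its call without knockout library 1. The members' median was -0.20 and that of all genes 0.07. With total counts 8 were higher and 6 lower and the median of all genes was 0.25. Without normal 3T3 library 1, 20 were lower, and without knockout library 1, 47 were. The differences that passed under all 19 alternatives other than the test against 1.5-fold were those of Uqcrfs1 (-0.62), Cox7b (-0.54), Uqcrh (-0.48), Cox8a (-0.46) and Atp5mpl (-0.44). Uqcrfs1 stood at 41.8 and 41.7 CPM in induced cells, against 41.7 and 42.9 CPM in normal cells, so it was close to level in 3T3, while the knockout libraries were lower.

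By call, 5 members fell in both lines (Uqcrh, Cox7b, Atp5b, Atp5f1 and Atp5mpl), which are 5 of the 11 falls in 3T3 and 5 of the 30 in Scid.adh. All 5 lost the call in Scid.adh with total counts, and each lost the call in 3T3 with at least 1 library left out. Ndufa11, Ndufb7 and Atp5g1 rose with induction and fell in the knockout, 22 fell in the knockout and did not pass in 3T3, 6 fell and 5 rose in 3T3 and did not pass in the knockout, and 44 passed in neither line. Ndufb7 and Atp5g1 lost their call in 3T3 with 1 library left out, and Ndufa11 and Ndufb7 lost theirs in Scid.adh with 1 left out. The differences of these 3 genes between lines did not pass, at -0.07 for Ndufa11, -0.21 for Ndufb7 and -0.37 for Atp5g1.

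**Figure D4:**
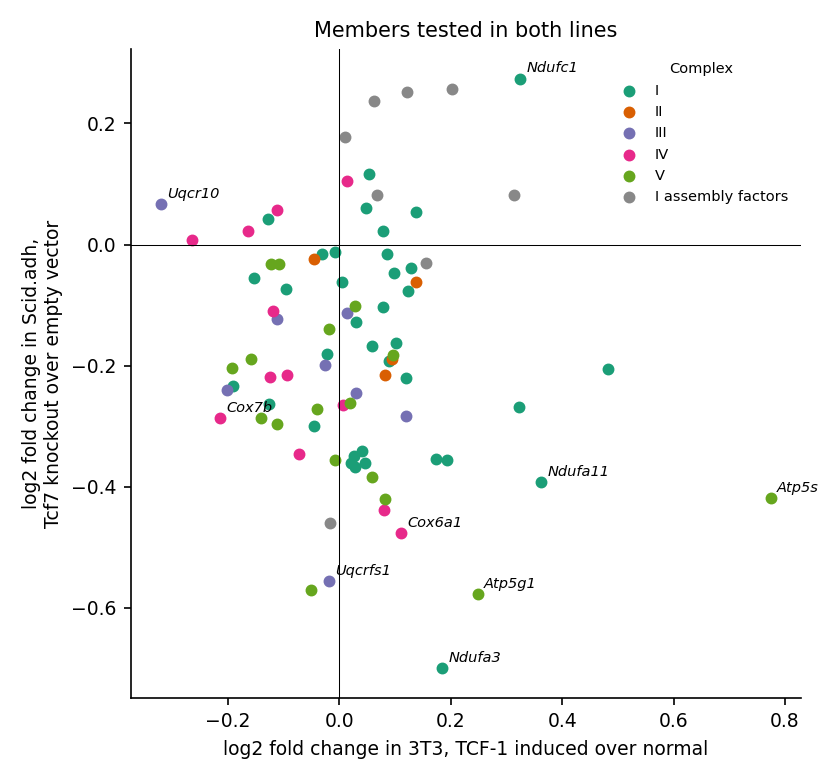
The log2 fold change of the 85 members tested in both lines, TCF-1 induced over normal 3T3 (horizontal) against Tcf7 knockout over empty-vector Scid.adh (vertical), 1 point per gene and coloured by complex. Most points lie below 0 on the vertical axis (68 of 85) and spread to both sides of 0 on the horizontal axis.

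Levels per kilobase of exon, averaged over a line, differed widely among the members. In Scid.adh they were led by the F1 genes Atp5b and Atp5a1, at 383 and 380 CPM per kilobase, ahead of Cox8a at 239, Atp5c1 at 168, Uqcr11 at 157 and Uqcrfs1 at 154. In 3T3 Cox8a came first of these at 183 CPM per kilobase, with Atp5a1 at 144 and Atp5b at 122. By complex the median level in Scid.adh was 47.7 CPM per kilobase in complex I, 79.2 in complex II, 89.8 in complex III, 49.8 in complex IV and 61.8 in complex V, and 11.3 among the complex I assembly factors, where the value for complex IV covers all 20 genes, 8 of them near 0. The same medians in 3T3 were 24.0, 26.1, 31.8, 21.3 and 27.4 CPM per kilobase, and 4.49 for the assembly factors. The gene tables of the lines differ in length, and levels were not tested between lines.

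In complex IV the isoforms used were the common ones in both lines. Several complex IV subunits have alternative genes for heart and muscle, testis or low oxygen, while the c-ring genes code for the same mature protein. Per kilobase of exon, Cox4i1, Cox6a1, Cox6b1, Cox7a2, Cox7b, Cox8a and Ndufa4 were all far above their partners Cox4i2, Cox6a2, Cox6b2, Cox7a1, Cox7b2, Cox8b, Cox8c and Ndufa4l2. The heart and muscle genes Cox6a2, Cox7a1 and Cox8b, the testis genes Cox6b2, Cox7b2 and Cox8c, and the oxygen-regulated Cox4i2 and Ndufa4l2 stayed under 1 CPM in every library. Cox4i2 had 0.707 and 0.649 CPM in induced 3T3 cells, against 0.250 and 0.574 CPM in normal cells, which did not pass (adjusted p = 0.313), and was at 0 in all 4 Scid.adh libraries. Cox6b2, Cox7a1, Cox7b2, Cox8b, Cox8c and Ndufa4l2 were under the count filter in both lines, and Cox4i2 and Cox6a2 in Scid.adh too, which accounts for every untested member. The c-ring genes kept their order in both lines by CPM per kilobase, with Atp5g3 first and Atp5g1 and Atp5g2 below it.

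**Figure D5:**
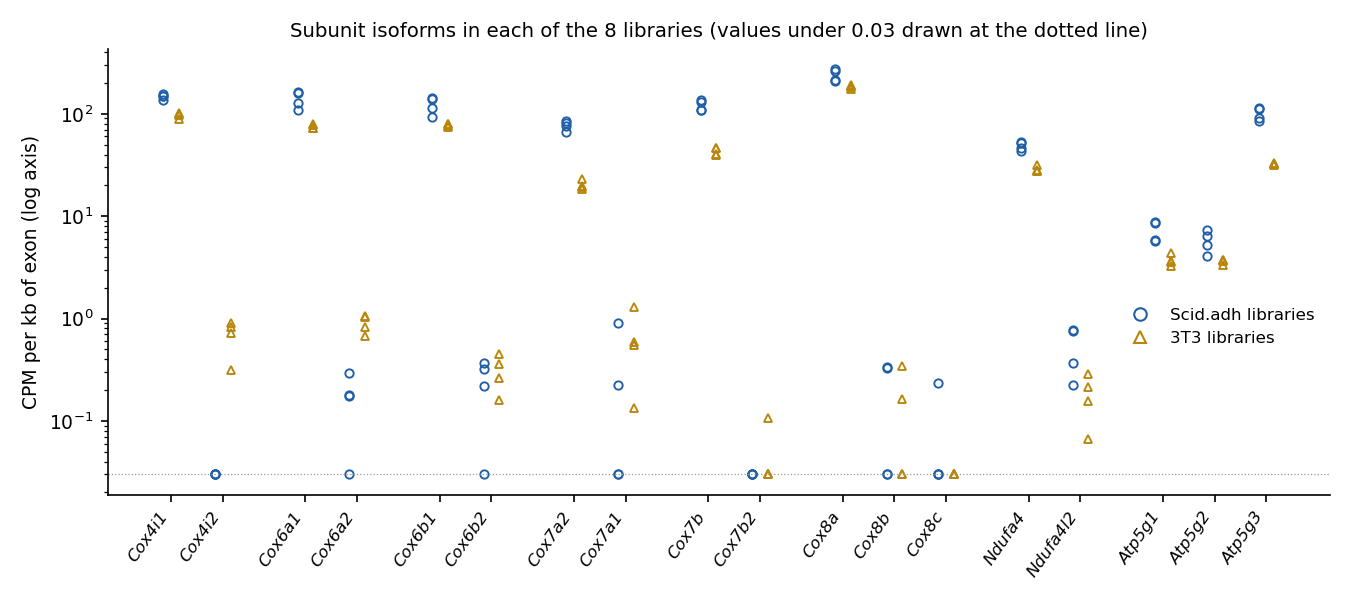
CPM per kilobase of exon (log axis) of subunit isoforms in each Scid.adh library (circles) and each 3T3 library (triangles), grouped by subunit. Values under 0.03 are drawn at the dotted line. The common isoform of each complex IV subunit lies above its alternatives in every library.

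Genes around the chain were followed as lists, to be read against the 15.9% of all genes that fell and the 15.6% that rose in Scid.adh. At an average of 50 CPM or more, 28.0% of genes fell and 8.52% rose, and the lists were not split by level. In knockout Scid.adh cells 9 of 16 citric acid cycle genes fell (56.2%), among them Ogdh, of the oxoglutarate dehydrogenase complex (181 and 194 CPM in knockout libraries, against 254 and 271 CPM; log2 fold change -0.48). The list's median was -0.22. Of 77 mitochondrial ribosome genes, 14 fell (18.2%, near the share of all genes, median -0.14), among them Mrpl38 (-0.53) and Mrps16 (-0.46). Cycs, cytochrome c, and Cyc1, the cytochrome subunit of complex III whose symbol lies outside the rule, each fell by 0.24. Of 17 complex IV assembly genes, 2 fell (11.8%), Cox16 (-0.64) and Cox10, which makes heme O (-0.51), and the complex V assembly gene Atpaf2 fell by 0.44. Of other assembly factors of complex I, Tmem126b rose (0.60) and Ecsit fell (-0.64), and of complex III, Lyrm7 rose (0.97) and Uqcc1 fell (-0.38). Of 13 tested regulators of respiratory genes 4 fell (30.8%), among them Polrmt, the mitochondrial RNA polymerase (-0.51), and Hcfc1 (-0.44), while Nrf1 (-0.13) and Gabpa (0.01) did not pass. Among mitochondrially encoded subunits mt-Nd3 alone rose, at 16.9 and 19.1 CPM in knockout libraries against 12.6 and 10.4 CPM (log2 fold change 0.65, adjusted p = 0.0121), and Bnip3, a mitophagy receptor, rose by 1.72 on the log2 scale. With total counts 4 citric acid cycle genes fell and 1 rose, and 4 mitochondrial ribosome genes fell and 4 rose, with medians of -0.09 and -0.01.

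In induced 3T3 cells the lists are read against the 18.5% of all genes that rose and the 18.3% that fell. At an average of 50 CPM or more, 27.5% of genes rose and 34.0% fell. Of 19 complex IV assembly genes 4 rose (21.1%), among them Cox18 (13.4 and 14.3 CPM in induced cells, against 8.07 and 8.50 CPM in normal cells; log2 fold change 0.74), which inserts a core subunit, and Coa7 (0.55). Sdhaf1 (0.71), which assists the iron-sulfur protein of complex II, Uqcc3 (0.35), Timmdc1 (0.39) and Acad9 (0.34), which build complexes III and I, and Atpif1, the inhibitor of the ATP synthase (0.23), rose too. Of 78 mitochondrial ribosome genes 13 rose (16.7%) and 5 fell (6.41%), with Mrpl34 at 0.50 and Mrps6 at -0.48, and of 16 citric acid cycle genes 4 rose (25.0%) and 3 fell (18.8%), with Ogdh at 0.29 and Dlat at -0.41. The transcriptional coactivator gene Ppargc1a, a known driver of respiratory chain expression in muscle and brown fat, stood at 29.4 and 28.3 CPM in induced cells, against 91.8 and 96.9 CPM in normal cells (log2 fold change -1.71, SE 0.06), and Ppargc1b at 6.30 and 6.99 CPM, against 14.6 and 13.2 CPM (log2 fold change -1.07). In all, 3 of the 14 tested regulators of respiratory genes fell (21.4%, near the share of all genes) and 0 rose, with a median of -0.08. Ppargc1a had at most 0.122 CPM in Scid.adh and was not tested there. Of 6 tested genes in the list of hypoxia targets that act on the chain, 1 rose (16.7%) and 4 fell (66.7%), with a median of -0.39. In it Hif1a rose by 0.95 and Lonp1, the mitochondrial protease, fell by 0.79 on the log2 scale. The 13 mitochondrially encoded subunits are listed at 0 in all 4 of the 3T3 libraries, so their level in 3T3 cannot be read.

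Pseudogenes copied from these genes bound how single 3T3 values can be read. In GENCODE M21, 22 members have at least 1 pseudogene of at least 95% identity over at least 100 bases, 47 in all, and these are counted in the 3T3 table and not in the Scid.adh table. In 3T3 the counts of such pseudogenes came to 179% of those of Ndufs5 and 73.2% of those of Ndufa12, and in 6 members they came to over 10%. For the 11 falls kept in Scid.adh this share was at most 7.94% in 3T3. It cannot be read in Scid.adh, where these pseudogenes have no rows. In addition, 32 members overlap another gene on either strand.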

How the data were processed

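Gene counts were used as deposited. Per the labels, RNA was made into SMARTer Stranded Total RNA Pico libraries read in pairs, and the submitters' processing notes list GRCm38 (mm10), HTSeq 0.6.1 and STAR 2.5.0a. For the annotation release and the strand setting of counting, the sources used here give nothing. The authors deposited raw counts per Ensembl gene, 53465 genes in 3T3 and 31053 in Scid.adh tables, and rows that name no gene were left out. In Scid.adh such rows held 22.3% and 25.8% (no feature) and 2.44% and 2.20% (ambiguous) in knockout libraries, against 21.3% and 21.6%, and 2.28% and 2.31%, in empty-vector libraries.

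Each line was fitted by itself with edgeR 4.0.16 (R 4.3.3), with TMM factors, filterByExpr, the robust quasi-likelihood test and Benjamini-Hochberg adjustment over all tested genes, and called at an adjusted p under 0.05. The fit was run on simulated data with planted changes and the same spread for all genes. The mark it had to reach concerned planted changes larger than that of any member, so it does not vouch for the calls here. A fit of all 8 libraries gave the difference between lines. Levels are CPM over TMM-scaled library sizes, and CPM per kilobase uses all annotated exons of a gene. Between replicates the biological coefficient of variation came to 5.94% for Scid.adh and 2.41% for 3T3. With 2 libraries against 2, an exact permutation test over libraries cannot go below p = 0.333 and was not used. Alternatives were other scalings (DESeq2 1.42.0 size factors, upper quartile), the DESeq2 Wald test, limma-voom (limma 3.58.1), other filters, a 1.5-fold test, loess corrections for level, GC content and exonic length, a joint fit, and each library left out; total counts were added after seeing the data.

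The members and gene lists were chosen with earlier results of these data known. Genes named with values are the succinate dehydrogenase genes, the most abundant member of each complex, per line and complex up to 3 rises and 3 falls of the largest size past the test with a mean of at least 5 CPM, isoform pairs, and up to 2 genes per list, apart from genes that are not reported here; others named to fill a count, or for holding a call under the alternatives, were chosen after their values were seen.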

Additional observations from a re-analysis of the deposited data

Results flagged for a closer look

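The change with more TCF-1 was compared between 3T3 (induced minus normal) and Scid.adh (empty vector minus knockout) by the edgeR test of the difference in the fit of all 8 libraries. Of 85 members 36.5% were lower in 3T3 and 1.18% higher, where 14.3% and 14.5% of all genes were. The 21 listed here are those picked by the rules for genes named with values. Other members named above, such as Ndufb10, Ndufv1, Ndufs3 and Atp5a1, also passed. In complex I the differences on the log2 scale were -0.56 for Ndufa3, -0.38 for Ndufa7, -0.47 for Ndufb11 and 0.56 for Ndufc1, and the assembly factor Ndufaf8 gave -0.52. In complex III they were -0.62 for Uqcrfs1, -0.48 for Uqcrh and -0.27 for Uqcrc1. In complex IV they were -0.54 for Cox7b, -0.46 for Cox8a, -0.41 for Cox6a1, -0.40 for Cox6b1, -0.39 for Ndufa4 and -0.27 for Cox4i1. In complex V they were -0.66 for Atp5g2, -0.47 for Atp5b, -0.44 for Atp5mpl, -0.41 for Atp5g3, -0.39 for Atp5f1, -0.38 for Atp5k and -0.37 for Atp5d. The call of Atp5g2 was lost in 13 of 19 alternatives, limma-voom, the DESeq2 Wald test and the replicate block included, with values from -1.12 to -0.47. Calls were also lost in 11 for Ndufa7, 8 for Uqcrc1, 7 for Ndufaf8, 6 for Atp5k and 5 for Cox4i1. They were lost in at most 3 for the rest of the 21, Ndufc1 among them (0.34 without knockout library 1). Cox6b1 was at -0.27 without knockout library 2 and kept its call. Of the 21, 20 were lower in 3T3 and 1 was higher. With total counts 6 members in all were lower and 8 higher in 3T3.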

How the results depend on the processing

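In Scid.adh 30 members fell and 0 rose. The falls numbered 19 with upper-quartile factors, 11 with total counts, 18 with the DESeq2 Wald test, 19 with the loess correction against level and 0 against 1.5-fold; rises numbered 1 with upper-quartile factors, 5 with total counts, 2 with the level correction, 1 with the exonic length correction and 1 in the joint fit. In 3T3 8 rose and 11 fell. Rises numbered 1 with the DESeq2 Wald test, 5 with no filter, 4 in the joint fit and 0 against 1.5-fold; falls numbered 7 with total counts, 1 with the Wald test and 0 against 1.5-fold. Of the differences between lines, 1 was higher and 31 lower; higher ones numbered 4 with upper-quartile factors, 8 with total counts, 2 at a mean of at least 1 CPM, 4 with the level correction and 0 against 1.5-fold, and lower ones 17, 6 with total counts, 18 with the level correction and 0 against 1.5-fold. Leaving out 1 library gave 3 to 10 rises and 1 to 10 falls in 3T3, 0 to 3 and 15 to 46 in Scid.adh, and 0 to 3 higher and 20 to 47 lower between lines. Correlations of deviations between libraries of the same replicate number were 0.0124 in 3T3 and 0.00147 in Scid.adh. They do not decide whether replicate numbers pair the libraries. With the replicate block more of all genes rose and more fell in each line, though fewer passed between lines. Among the members 8 then rose and 14 fell in 3T3, 1 rose and 31 fell in Scid.adh, and 1 was higher and 30 lower between lines. Signs also turned in members near 0. Where leaving out 1 library turned a sign, values ran in 3T3 from -0.12 to 0.010 for Atp5g2, -0.028 to 0.012 for Atp5g3, -0.24 to 0.086 for Cox7a2, -0.0087 to 0.041 for Cox7a2l and -0.085 to 0.031 for Uqcrc1, and in Scid.adh from -0.012 to 0.12 for Cox6c, -0.055 to 0.20 for Ndufaf4, -0.14 to 0.0074 for Sdhb and -0.16 to 0.096 for Sdhd. In 3T3 Atp5g3 also turned with total counts (0.011), the level correction (0.0022) and the GC correction (0.0031), and Cox7a2l in the joint fit (-0.0057). In Scid.adh Cox4i1 turned with total counts (0.025) and the level correction (0.0047), Ndufaf4 with the GC correction (-0.043), Sdhb with upper-quartile factors (0.018), total counts (0.073), level (0.030) and GC (0.038), and Sdhd with the same 4 (0.056, 0.11, 0.069 and 0.033) and exonic length (0.010). The cause was not tested. With 7740198 to 10392402 counts a library, Scid.adh was the shallower line, and members under the count filter were not tested.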
